A study of Mus musculus with 18 samples.

Results

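The 35 genes described here encode the enzymes that build cholesterol and fatty acids, with the regulators that set their transcription and the proteins that move sterol within and out of cells. They were listed by symbol, with earlier results of these data known, so counts over them are descriptions. They fall into 18 mevalonate and sterol enzymes, 6 regulators and transport proteins of the SREBP system, 3 sterol efflux genes and 8 fatty acid enzymes. All 35 of them, out of 20149 gene symbols on the array, were matched to probes through RefSeq accessions, with 48 of the array's 39429 probes. The brightest probe of each gene was well above background in the retinal channel on 17 of 17 arrays, so no member depended on the filter on dim probes.

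RNA came from whole mouse retina, 3 days after crush of the optic nerve or from uninjured eyes used as the control. All mice carried floxed alleles of Map3k12, the gene of the dual leucine zipper kinase DLK, and were given tamoxifen at 10 to 12 weeks of age. DLK sits upstream of JNK signalling in injured axons, and the design asks how its loss alters the retinal response to crush. Cre-positive mice also carried the CAG Cre-ERT transgene, whose CAG promoter drives tamoxifen-inducible Cre in many tissues and not in ganglion cells alone, while Cre-negative littermates did not carry it. Per the labels a small and variable amount of DLK protein remained in Cre-positive retinas. The groups held 4 Cre-negative uncrushed, 3 Cre-negative crushed, 5 Cre-positive uncrushed and 5 Cre-positive crushed arrays, 1 retinal sample each, and an array whose labels disagree on crush was left out. The labels do not say whether samples of a group came from separate animals, so p-values measure the spread between these samples only. Each array held Cy5-labelled retinal cRNA beside a Cy3-labelled mouse reference pool, and levels are log2 of the Cy5 over the Cy3 signal, written below as log2 ratios.

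Cells sense sterol in the membrane of the endoplasmic reticulum. When sterol is scarce, SCAP escorts the SREBP transcription factors to the Golgi, where they are cut and released to switch on the mevalonate, sterol and fatty acid enzymes, and when sterol is plentiful the INSIG proteins hold SCAP back. Oxidised sterols instead activate the liver X receptors (LXR), which raise the efflux transporters. In retina, sterol is made locally and is also taken up through the pigment epithelium, while photoreceptors need long unsaturated fatty acids for their stacked membranes.

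Promoter sequences are shown because SREBPs act through short elements close to the start site, usually together with the factor NF-Y. RefSeq promoters of build GRCm38.p6 were found for 27 of the 35 members, 35 promoters in all, and 8 members had no entry in the table (Fdps, Fdft1, Sqle, Stard4, Abcg1, Scd1, Scd2 and Fads1). The 250 bases before each annotated start were searched on both strands. The sequences below run 5′ to 3′ from 250 bases before the start to its edge. Idi1 and Elovl6 passed the tests described below, and Hmgcs1 and Insig1 are classical sterol-responsive genes. Capitals mark an NF-Y box (CCAAT, which reads ATTGG on the other strand), an E-box (CACGTG) or a sterol response element core (TCACNCCAC).
Idi1, chr13:8885356-8885605, + strand: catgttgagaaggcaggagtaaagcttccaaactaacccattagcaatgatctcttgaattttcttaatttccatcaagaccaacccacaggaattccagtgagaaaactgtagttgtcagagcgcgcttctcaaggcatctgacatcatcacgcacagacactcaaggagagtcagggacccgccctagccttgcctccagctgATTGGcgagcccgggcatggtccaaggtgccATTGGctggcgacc
Hmgcs1, chr13:119690101-119690350, + strand: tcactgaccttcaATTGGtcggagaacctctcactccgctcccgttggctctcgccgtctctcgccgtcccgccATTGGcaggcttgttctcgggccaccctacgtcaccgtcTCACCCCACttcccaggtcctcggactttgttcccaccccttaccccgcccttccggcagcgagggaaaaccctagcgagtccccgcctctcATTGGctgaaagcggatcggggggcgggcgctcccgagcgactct
Insig1, chr5:28071162-28071411, + strand: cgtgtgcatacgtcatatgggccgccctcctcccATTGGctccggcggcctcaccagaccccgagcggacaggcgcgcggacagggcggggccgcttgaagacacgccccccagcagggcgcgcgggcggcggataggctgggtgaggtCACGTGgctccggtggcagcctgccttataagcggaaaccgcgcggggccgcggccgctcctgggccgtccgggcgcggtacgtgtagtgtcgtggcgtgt
Elovl6, chr3:129532136-129532385, + strand: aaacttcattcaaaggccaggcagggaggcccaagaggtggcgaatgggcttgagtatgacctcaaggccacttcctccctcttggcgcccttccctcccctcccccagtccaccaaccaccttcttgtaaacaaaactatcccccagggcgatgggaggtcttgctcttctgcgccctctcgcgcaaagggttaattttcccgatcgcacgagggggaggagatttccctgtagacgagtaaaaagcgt

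The Idi1 stretch holds 2 NF-Y boxes, which begin 45 and 14 bases before the start. Hmgcs1 holds 3 NF-Y boxes and a sterol response element core that begins 137 bases before the start, and Insig1 holds an NF-Y box and an E-box. No searched letters occur in the Elovl6 stretch, which says only that these exact letters are not in this window. Across the sterol enzymes 14 of 18 promoters (77.8%), of 14 of the 15 enzymes with an entry, held an NF-Y box, against 11120 of 32851 promoters (33.8%) in the whole table and 1 of 5 promoters (20%) of fatty acid enzymes, that of Fasn. An E-box was present in 6 of 35 member promoters (17.1%) and in 6.02% of all promoters. The sterol response element core was present in 1 of 35, Hmgcs1, and in 1.05% of all, and an exact LXR element of the DR4 type was present in 0 of 35 and in 0.0152% of all. No motif overlapped a motif of another kind in the printed stretches. In Fasn a pair of NF-Y boxes on opposite strands overlaps, at 62 and 59 bases before the start. These are matches of letters and were not tested for binding.

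**Figure D1:**
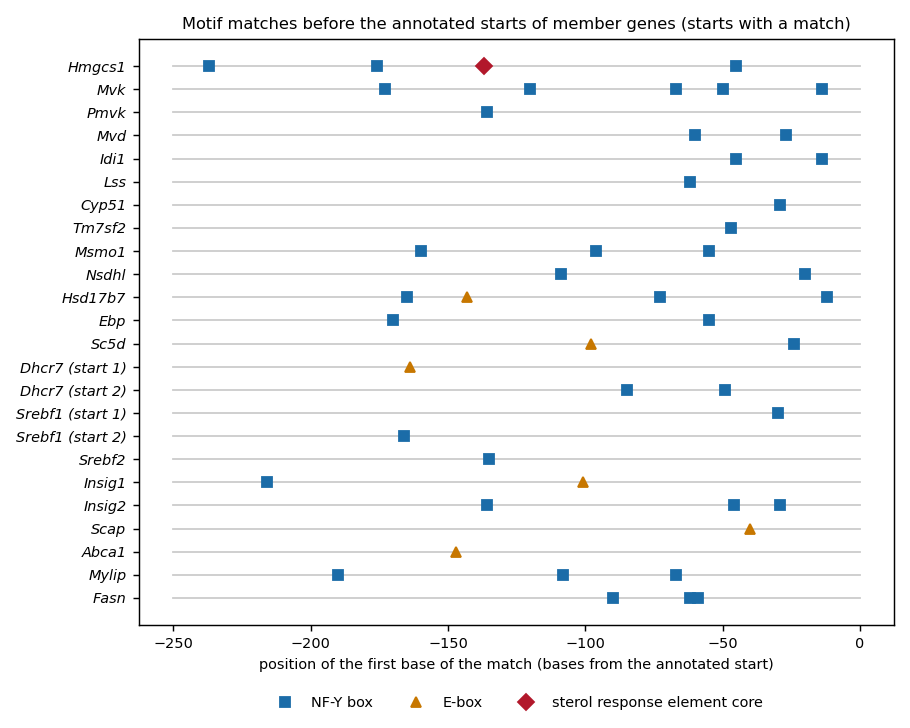
Positions of motif matches, in bases from the annotated start, for member promoters with at least 1 match; each line is the 250-base window and each symbol the first base of a match. NF-Y boxes lie in 14 of the 18 sterol enzyme promoters, and the sterol response element core is seen in Hmgcs1 alone, 137 bases before its start.

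Some properties of the arrays bear on the results that follow. The share of probes well above background in Cy5 was 68 to 76.2% and no spot was saturated. The 17 arrays lay on 5 slides, each scanned as 1 unit. Crushed retinas always occupied the even and uncrushed retinas the odd positions, so crush and array position cannot be told apart. Of the slides, 1 held only Cre-positive and another only Cre-negative arrays, so Cre effects are partly confounded with slide. Cre-positive uncrushed replicate 4 stood apart with a mean deviation of 2.23 (log2) over markers of cornea, iris and ciliary body. Cre-positive crushed replicate 5 had 1.23 over lens markers. Map3k12 itself, read by a probe that need not lie in the deleted part, had mean log2 ratios of 2.43 ± 0.16 (SD, n = 4) and 2.50 ± 0.16 (n = 3) in Cre-negative uncrushed and crushed retinas. In Cre-positive retinas they were 1.996 ± 0.16 (n = 5) and 2.03 ± 0.20 (n = 5), lower by 0.43 and 0.47, and neither difference passed (limma adjusted p = 0.88 and 0.060).

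At 3 days after crush a few enzymes had fallen slightly, and most of the pathway had no called change. Elovl6, the elongase that extends palmitate, was lower after crush in both genotypes, to 81.1% of the uncrushed level without Cre and 84.4% with it. Fdps, which makes farnesyl diphosphate, passed the test in Cre-negative retinas, at 79.5%, and Idi1, the isomerase that feeds it, in Cre-positive retinas, at 80.7%. No member was called higher in either genotype. The test was limma's moderated test across 25359 genes with Benjamini-Hochberg adjustment over all of them, two-sided, at an adjusted p under 0.05. Of these, 16780 had a gene symbol and the rest were single probes without one, each counted as a gene. Shares of all genes given below include those probes.

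In Cre-negative retinas 2 of 35 members were called lower and 0 higher, where 0.808% of all genes were called lower and 1.34% higher. In Cre-positive retinas 2 of 35 were again called lower and 0 higher, against 0.0868% and 0.666% of all genes. The unadjusted p was under 0.05 for 10 of 35 members (28.6%) without Cre and 13 (37.1%) with it, against 13.3% and 9.52% of all genes. The median log2 change of the sterol enzymes was -0.05 without Cre and -0.13 with it, with 10 and 15 of 18 below 0. These signs were read from the brightest probe. Of the 12 members with several probes, all probes of a gene shared a sign in 5 without Cre and in 7 with it. Over all genes the medians were 0.0015 and 0.00029, with 49.5% and 49.9% of genes below 0. For 34 of the 35 members the 95% interval lay within 1.5-fold in either direction in both genotypes, and Stard4 was the exception. With the array of disagreeing labels counted as Cre-negative uncrushed, 0 members were called in either genotype, a count given without the share of all genes. That array lay at an even slide position, with mean deviations of -0.92 over ganglion cell and 0.60 over microglia markers, where Cre-negative uncrushed arrays ran from -0.08 to 0.04 and from -0.02 to 0.03. Counted as Cre-negative crushed, it left the same 2 calls with Cre and added Msmo1 to the 2 without. The whole retina was profiled, so fewer cells of a type and less RNA per cell cannot be told apart.

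**Figure D2:**
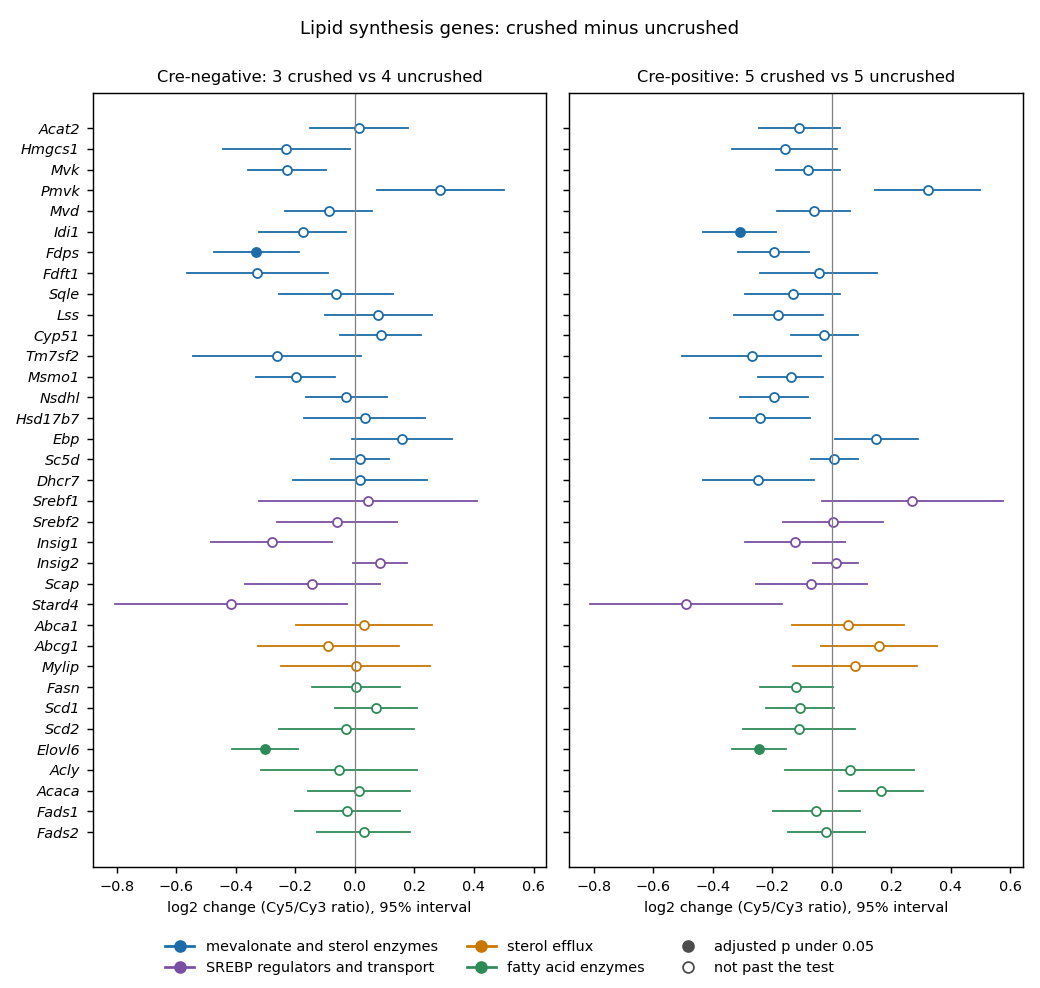
Log2 change of each member, crushed minus uncrushed, with its 95% interval, in Cre-negative (left) and Cre-positive (right) retinas; filled points passed an adjusted p under 0.05. Filled points are Fdps and Elovl6 on the left and Idi1 and Elovl6 on the right, while Pmvk is the member farthest above 0 in both.

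Elovl6 was the member with the smallest p in both genotypes. Cre-negative uncrushed retinas had log2 ratios of 1.30, 1.25, 1.34 and 1.23, and Cre-negative crushed retinas 0.93, 1.01 and 0.98. In the Cre-positive groups the uncrushed retinas had 1.27, 1.25, 1.27, 1.31 and 1.29, and the crushed ones 1.09, 1.09, 0.96, 1.09 and 0.95. Every crushed retina lay below every uncrushed one, in both genotypes. The change was -0.30 (SE 0.052, 95% interval -0.41 to -0.19, limma adjusted p = 0.0025) in Cre-negative and -0.24 (SE 0.043, -0.34 to -0.15, adjusted p = 0.0096) in Cre-positive retinas. Taken slide by slide, the crushed retina was lower on each of the 3 slides that held both Cre-negative conditions, by -0.27, -0.29 and -0.32. On the 4 slides with both Cre-positive conditions the differences were -0.26, -0.32, -0.16 and -0.21. The difference between the responses was 0.06 (95% interval -0.08 to 0.20). Without both Cre-positive arrays rich in cornea or lens genes, the Cre-positive change was -0.21 and no longer passed (adjusted p = 0.073).

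Fdps supplies the farnesyl groups used for sterols, ubiquinone and protein prenylation. Its log2 ratios were 0.09, 0.07, 0.14 and -0.02 in Cre-negative uncrushed and -0.29, -0.36 and -0.13 in Cre-negative crushed retinas. In Cre-positive retinas they were 0.07, 0.12, 0.12, 0.12 and 0.17 uncrushed, and 0.10, -0.06, -0.12, -0.10 and -0.18 crushed. The Cre-negative groups did not overlap, whereas crushed Cre-positive replicate 1 lay among the uncrushed values. The change was -0.33 (SE 0.068, 95% interval -0.47 to -0.19, limma adjusted p = 0.011) in Cre-negative and -0.20 (SE 0.056, adjusted p = 0.15) in Cre-positive retinas. The responses differed by 0.14 (95% interval -0.05 to 0.32, adjusted p = 0.72), so a difference between genotypes was not shown. Slide by slide the Cre-negative differences were -0.20, -0.27 and -0.50. The Cre-negative call was lost without crushed replicate 1 (-0.32, adjusted p = 0.064) or crushed replicate 2 (-0.28, adjusted p = 0.078), and with Agilent's processed signals (-0.29, adjusted p = 0.059).

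Idi1 converts isopentenyl to dimethylallyl diphosphate, the step before Fdps. Cre-positive uncrushed retinas had log2 ratios of 0.78, 0.67, 0.88, 0.82 and 0.62, and crushed ones 0.58, 0.40, 0.41, 0.39 and 0.45. Cre-negative uncrushed retinas had 0.54, 0.57, 0.66 and 0.70, and crushed ones 0.44, 0.37 and 0.52. Neither genotype's crushed values overlapped its uncrushed values. The change was -0.31 (SE 0.058, 95% interval -0.43 to -0.19, limma adjusted p = 0.014) in Cre-positive and -0.18 (SE 0.070, adjusted p = 0.27) in Cre-negative retinas, a difference of -0.13 (95% interval -0.33 to 0.06). Slide by slide the Cre-positive differences were -0.45, -0.34, -0.09 and -0.23. The Cre-positive call was lost without both arrays rich in cornea or lens genes (-0.29, adjusted p = 0.084) and with array weights (-0.27, adjusted p = 0.057). With only the Cre-positive arrays in the fit, and so a spread estimated from fewer arrays, the adjusted p was 0.091 for Idi1 and 0.081 for Elovl6.

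**Figure D3:**
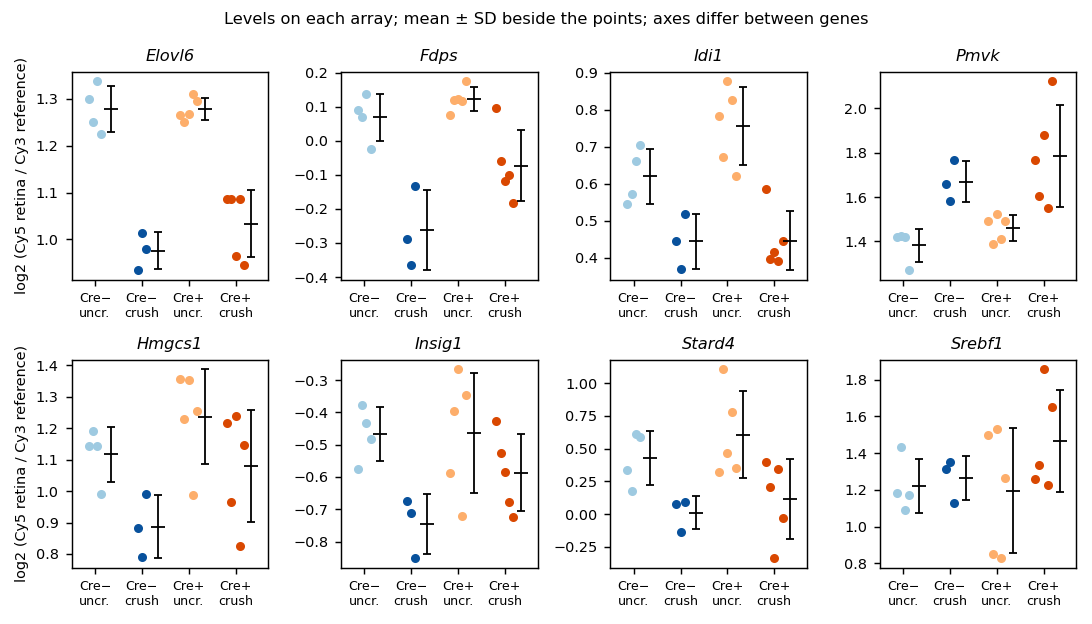
Log2 ratio of Cy5 retina over Cy3 reference on each array for 8 members in the 4 groups; points are arrays and black bars the mean ± SD (n = 4, 3, 5 and 5 in the order shown), with a separate y axis for each gene. Crushed Elovl6 values, 0.93 to 1.09, lie below all uncrushed values, 1.23 to 1.34, while the Srebf1 groups overlap.

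The other sterol enzymes were not called in either genotype taken alone. Hmgcs1, which commits acetyl groups to the mevalonate path, had log2 ratios of 1.14, 1.19, 1.14 and 0.99 in Cre-negative uncrushed and 0.88, 0.79 and 0.99 in Cre-negative crushed retinas. In Cre-positive retinas the values were 1.36, 1.23, 1.35, 0.99 and 1.26 uncrushed, and 1.22, 0.97, 1.24, 0.83 and 1.15 crushed. All 3 Cre-negative crushed values were below the Cre-negative uncrushed ones, with the highest of them nearly level with uncrushed replicate 4, and the Cre-positive groups overlapped. The changes were -0.23 (SE 0.10, limma adjusted p = 0.32) and -0.16 (SE 0.084, adjusted p = 0.58).

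Sqle, squalene epoxidase, acts in the branch of the pathway that makes only sterols. Its log2 ratios were -0.50, -0.36, -0.56 and -0.37 in Cre-negative uncrushed and -0.47, -0.67 and -0.39 in Cre-negative crushed retinas. Cre-positive uncrushed retinas had -0.18, -0.34, -0.21, -0.21 and -0.44, and crushed ones -0.41, -0.56, -0.18, -0.50 and -0.38. The groups overlapped in both genotypes, and the changes were -0.06 (SE 0.091) and -0.13 (SE 0.076), with intervals of -0.26 to 0.13 and -0.29 to 0.03.

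Because several enzymes moved alike in the 2 genotypes, their responses were also averaged in the same fit, a contrast chosen after the separate values had been seen. In that mean response 6 members were called lower and 1 higher, against 0.962% and 2.61% of all genes. Elovl6 (-0.27, limma adjusted p = 5.9e-05), Fdps (-0.26, 0.0013) and Idi1 (-0.24, 0.0036) were lower, as was Msmo1, the methylsterol oxidase of the late pathway (-0.17, 0.025). Msmo1 had log2 ratios of -0.28, -0.13, -0.12 and -0.22 in Cre-negative uncrushed and -0.36, -0.50 and -0.30 in Cre-negative crushed retinas. With Cre they were -0.12, -0.08, -0.07, -0.18 and -0.18 uncrushed, and -0.19, -0.24, -0.20, -0.37 and -0.31 crushed, so neither pair of groups overlapped. Mvk, mevalonate kinase, was at -0.15 (adjusted p = 0.040). Its log2 ratios were 0.22, 0.36, 0.26 and 0.10 in Cre-negative uncrushed and 0.02, -0.02 and 0.02 in Cre-negative crushed retinas, without overlap. With Cre they were 0.29, 0.27, 0.30, 0.27 and 0.28 uncrushed, and 0.25, 0.14, 0.33, 0.10 and 0.18 crushed, with overlap. It missed the threshold with slide as a block (0.078) and in 19 of 33 alternatives. Its other probe had -0.11 and was not called. Stard4, a carrier of cholesterol between membranes, was at -0.45 (adjusted p = 0.043) and is described with the regulators. The count fell from 7 to 4 without Cre-negative crushed replicate 1 or 2 or Cre-negative uncrushed replicate 3. The share of all genes called in those fits is not given here. Msmo1 lost its call in each of those 3 fits.

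Pmvk, phosphomevalonate kinase, differed in sign from Mvk and Mvd, the enzymes before and after it. Its log2 ratios were 1.42, 1.42, 1.42 and 1.27 in Cre-negative uncrushed and 1.66, 1.58 and 1.77 in Cre-negative crushed retinas. With Cre, uncrushed retinas had 1.49, 1.39, 1.52, 1.41 and 1.49, and crushed ones 1.77, 1.60, 1.88, 1.55 and 2.12. Every crushed retina was above every uncrushed one of its genotype. The changes were 0.29 (SE 0.10, limma adjusted p = 0.19) and 0.32 (SE 0.084, adjusted p = 0.097), not called, and their mean was 0.30 (SE 0.066, adjusted p = 0.011), called higher. The other Pmvk probe gave 0.31 and 0.34. Within slides the difference was above 0 on each of the 3 Cre-negative slides (0.35, 0.39 and 0.16) and each of the 4 Cre-positive slides (0.25, 0.63, 0.38 and 0.11).

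The other members of the late sterol pathway showed changes of either sign with none called. Ebp, the sterol isomerase, was at 0.16 and 0.15 in Cre-negative and Cre-positive retinas. Lss, the cyclase that makes lanosterol, was at 0.08 and -0.18, Nsdhl at -0.03 and -0.19, Hsd17b7 at 0.03 and -0.24 and Dhcr7, which catalyses the last step to cholesterol, at 0.02 and -0.25. Of these only Lss and Hsd17b7 had an unadjusted p under 0.05 for the difference between genotypes, and neither passed adjustment (limma adjusted p = 0.55 and 0.57). The other Hsd17b7 probe gave -0.05 and -0.08, a difference of -0.03, and the other Nsdhl probe -0.02 and 0.04. Cyp51, Sc5d and Acat2, which condenses acetyl-CoA, lay between -0.11 and 0.09 in both. Mvd was at -0.09 and -0.06. Fdft1, squalene synthase, was at -0.33 (SE 0.11, adjusted p = 0.18) without Cre and -0.04 with it, a difference of 0.28 whose interval ran from -0.02 to 0.59. Its other probe, well above background on 1 array, gave 0.13 and -0.06. Tm7sf2, a sterol reductase, was at -0.26 and -0.27 by its brightest probe and at -0.06 and -0.11 by the other probe.

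The regulators of the system were not called in either genotype. Srebf1, the gene of SREBP-1 and the main driver of fatty acid synthesis, had log2 ratios of 1.18, 1.43, 1.09 and 1.17 in Cre-negative uncrushed and 1.31, 1.35 and 1.13 in Cre-negative crushed retinas. Cre-positive uncrushed retinas had 1.501, 0.85, 1.53, 0.83 and 1.27, and crushed ones 1.26, 1.34, 1.86, 1.23 and 1.65. The groups overlapped, and the Cre-positive arrays were widely spread. The changes were 0.04 (SE 0.17, interval -0.32 to 0.41) and 0.27 (SE 0.14, interval -0.03 to 0.57).

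Srebf2, the gene of SREBP-2 and the main driver of sterol synthesis, had -1.74, -1.88, -1.81 and -1.96 in Cre-negative uncrushed and -1.97, -1.71 and -2.04 in Cre-negative crushed retinas. Its Cre-positive uncrushed log2 ratios were -2.12, -1.69, -1.90, -1.78 and -1.88, and the crushed ones -1.90, -1.71, -1.91, -1.89 and -1.96. Both pairs of groups overlapped, with changes of -0.06 (SE 0.096) and 0.0027 (SE 0.080). The 95% intervals were -0.26 to 0.14 and -0.17 to 0.17. The other Srebf2 probe gave 0.19 and -0.17, not called.

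Insig1, which retains SCAP in the endoplasmic reticulum and is itself a sterol-responsive gene, had -0.57, -0.38, -0.43 and -0.48 in Cre-negative uncrushed and -0.68, -0.71 and -0.85 in Cre-negative crushed retinas. In Cre-positive retinas the log2 ratios were -0.59, -0.40, -0.27, -0.72 and -0.35 uncrushed, and -0.43, -0.53, -0.58, -0.68 and -0.72 crushed. The Cre-negative crushed values all lay below the uncrushed ones, and the Cre-positive groups overlapped. The changes were -0.28 (SE 0.097, limma adjusted p = 0.19) and -0.12 (SE 0.080, adjusted p = 0.66). Insig2 was at 0.08 and 0.01 (0.03 and -0.10 by its other probe), and Scap at -0.14 and -0.07.

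Stard4 had the lowest changes of all members, -0.42 (SE 0.18, limma adjusted p = 0.33) in Cre-negative and -0.49 (SE 0.15, adjusted p = 0.21) in Cre-positive retinas. Its log2 ratios ran from 0.18 to 0.61 in Cre-negative uncrushed and from -0.13 to 0.09 in Cre-negative crushed retinas, without overlap. In Cre-positive retinas they ran from 0.32 to 1.11 uncrushed and from -0.34 to 0.40 crushed, with overlap. The other Stard4 probe, which was well above background on 10 of 17 arrays, had changes of 0.11 and -0.08, so the probes disagreed. The mean response lost its call in 17 of 33 alternatives, among them the mean over all probes of a gene.

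None of the efflux genes, which respond to LXR, was called. Abca1, the transporter that loads sterol onto apolipoproteins, had log2 ratios of -0.27, -0.50, -0.14 and -0.32 in Cre-negative uncrushed and -0.32, -0.08 and -0.42 in Cre-negative crushed retinas. Cre-positive uncrushed retinas had -0.35, -0.36, -0.33, -0.11 and -0.45, and crushed ones -0.54, -0.27, -0.17, -0.11 and -0.24. The values overlapped throughout, with changes of 0.03 (SE 0.11) and 0.05 (SE 0.090). Abcg1, a partner transporter, was at -0.09 and 0.16. Mylip, a ubiquitin ligase that removes lipoprotein receptors, was at 0.0026 and 0.079 (-0.02 and 0.03 by its other probe). The largest upper bound of the 95% intervals among these 3 genes was 0.35, for Abcg1 in Cre-positive retinas.

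Among the fatty acid enzymes only Elovl6 was called. Fasn, the synthase that makes palmitate, had log2 ratios of 0.60, 0.60, 0.56 and 0.61 in Cre-negative uncrushed and 0.51, 0.77 and 0.51 in Cre-negative crushed retinas. Cre-positive uncrushed retinas had 0.53, 0.65, 0.77, 0.69 and 0.68, and crushed ones 0.66, 0.45, 0.57, 0.55 and 0.50. The groups overlapped in both genotypes, with changes of 0.0030 (SE 0.071) and -0.12 (SE 0.059, limma adjusted p = 0.54).

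The desaturases Scd1 and Scd2 place the first double bond in saturated fatty acids. For Scd1 the log2 ratios were -2.15, -2.21, -2.22 and -2.16 in Cre-negative uncrushed and -2.11, -2.08 and -2.15 in Cre-negative crushed retinas. Its Cre-positive uncrushed values were -2.20, -1.99, -2.03, -1.87 and -2.03, and the crushed ones -2.05, -2.20, -2.07, -2.14 and -2.20. These groups overlapped, and the changes were 0.07 (SE 0.066) and -0.11 (SE 0.054).

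For Scd2 the log2 ratios were -0.69, -0.75, -0.50 and -0.74 in Cre-negative uncrushed and -0.87, -0.52 and -0.70 in Cre-negative crushed retinas. Its Cre-positive uncrushed values were -0.79, -0.52, -0.52, -0.52 and -0.59, and the crushed ones -0.61, -0.56, -0.996, -0.54 and -0.78. They overlapped, with changes of -0.03 (SE 0.11) and -0.11 (SE 0.090). Acly, which makes cytosolic acetyl-CoA, was at -0.05 and 0.06 by its brightest probe and at 0.04 and -0.15 by the other. Acaca, acetyl-CoA carboxylase, was at 0.01 and 0.17 by its brightest probe, and its 2 other probes gave -0.10 and 0.16 in Cre-negative and -0.07 and -0.04 in Cre-positive retinas. The desaturases Fads1 and Fads2, which act on polyunsaturated chains, lay between -0.05 and 0.03 in both genotypes.

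No member passed the test for a difference between the crush responses of the genotypes (0 of 35, where 0.418% of all genes passed, with 3 members, or 8.57%, at an unadjusted p under 0.05 against 8.38% of all genes). The 95% interval of the difference lay within 1.5-fold for 33 of 35, with Fdft1 and Srebf1 outside. No member passed for the Cre effect in uncrushed retinas (0 of 35, against 0.0118% of all genes) or in crushed retinas (0 of 35, against 1.18%), with 5 members, or 14.3%, at an unadjusted p under 0.05 in each, against 5.57% and 13.9% of all genes. For both Cre effects all 35 intervals lay within 1.5-fold in this fit, which leaves slide out. With slide as a fixed block, Srebf1 in crushed retinas was at 0.18 (SE 0.20) in place of 0.20 (SE 0.17). Acly there was at 0.09 (SE 0.125) in place of 0.25 (SE 0.12). A miss of the threshold does not show that the genotypes were alike. The intervals bound how far they could differ only in the fit without slide.

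Most sterol enzymes had the same sign of Cre effect in uncrushed retinas, and so did most genes of several marker lists. There 16 of 18 sterol enzymes had a higher mean in Cre-positive than in Cre-negative retinas, with a median of 0.06 (log2), where 53.6% of all genes had a positive sign and the median of all genes was 0.0072. Also above 0 were 11 of 12 Müller glia, 10 of 12 ganglion cell, 9 of 10 rod and 9 of 10 pigment epithelium markers. Of lens markers 4 of 8 were above 0, and of red blood cell markers 0 of 3. The positive sign was therefore not particular to the sterol enzymes. Hsd17b7 (0.22, limma adjusted p = 0.88, and 0.05 by its other probe), Sqle (0.17), Nsdhl (0.17) and Idi1 (0.14) were the sterol enzymes with an unadjusted p under 0.05, and none passed. With slide as a fixed block the median was 0.067. In that fit Hsd17b7 was at 0.17, Sqle at 0.09 (SE 0.066), Nsdhl at 0.17 and Idi1 at 0.12. In crushed retinas 12 of 18 sterol enzymes were above 0, with a median of 0.04. All these signs were read from the brightest probe. Of the 12 members with several probes, all probes of a gene shared a sign in 7 for uncrushed and in 2 for crushed retinas. Fdps (0.19, adjusted p = 0.19), Mvk (0.19, adjusted p = 0.14) and Fdft1 (0.23) lay above 0 and Lss (-0.21) and Dhcr7 (-0.22) below it, none of them called.

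**Figure D4:**
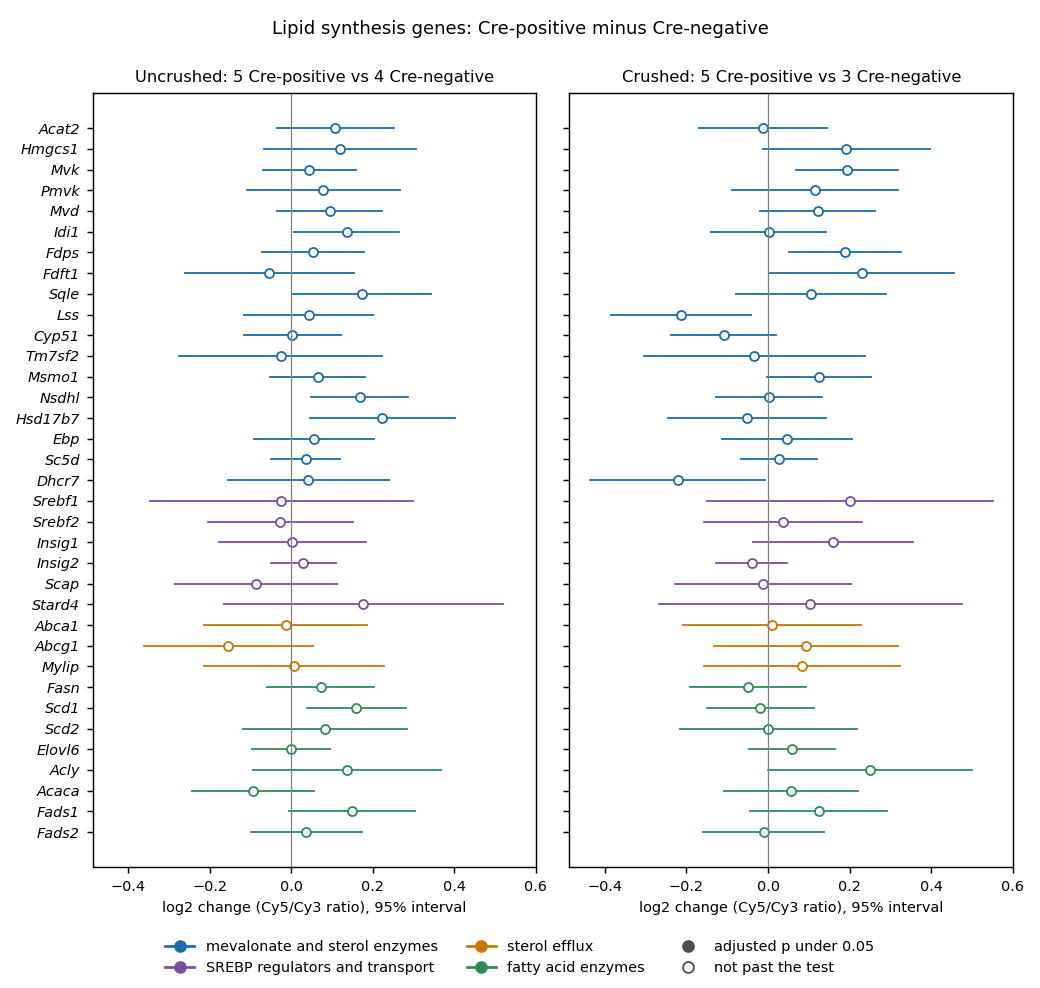
Log2 difference of each member, Cre-positive minus Cre-negative, with its 95% interval, in uncrushed (left) and crushed (right) retinas; open points did not pass an adjusted p under 0.05. No point is filled, and 16 of the 18 sterol enzymes lie above 0 on the left against 12 on the right.

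Averaged on each array, the 18 sterol enzymes gave a mean deviation from the Cre-negative uncrushed mean of -0.04 to 0.02 (log2) in Cre-negative uncrushed and -0.09 to -0.05 in Cre-negative crushed retinas. Cre-positive arrays ran from 0.05 to 0.10 uncrushed and from -0.10 to 0.04 crushed. In both genotypes the crushed arrays lay below the uncrushed ones without overlap, and the Cre-positive uncrushed arrays lay above all others. The margins were narrow beside the pooled within-group SD of 0.036. The nearest uncrushed and crushed arrays were at -0.038 and -0.046 without Cre and at 0.052 and 0.039 with it. The group means were 0, -0.07, 0.08 and -0.03 in that order, so the shifts were small. The regulators ran from -0.01 to 0.03 and from -0.18 to -0.10 in the Cre-negative groups and overlapped in the Cre-positive ones. Efflux and fatty acid enzymes overlapped between all groups. Separation was not particular to these lists. In Cre-negative retinas, other genes of isoprenoid and sterol handling ran from -0.0083 to 0.0097 uncrushed and 0.0455 to 0.12 crushed. Other genes of fatty acid synthesis, elongation and binding ran from -0.0087 to 0.0098 and -0.054 to -0.039. Both lists overlapped in Cre-positive retinas, while ganglion cell and microglia markers separated in both genotypes.

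**Figure D5:**
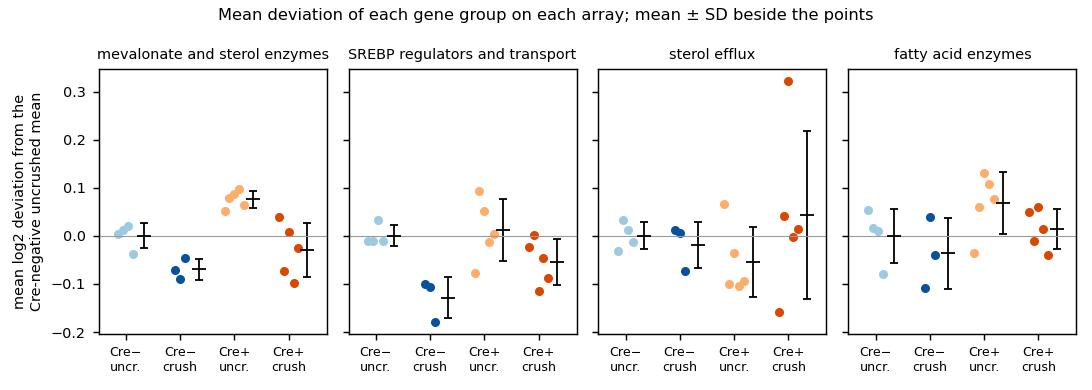
Mean log2 deviation of each gene group from its Cre-negative uncrushed mean on each array; points are arrays and black bars the mean ± SD of the group (n = 4, 3, 5 and 5 in the order shown). The sterol enzymes separate crushed from uncrushed arrays within each genotype by a narrow margin, with group means of 0, -0.07, 0.08 and -0.03, while efflux and fatty acid enzymes overlap.

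Cell type markers moved with the same groups, and their part in the lipid gene values was not tested. Of 12 ganglion cell markers 9 were called lower after crush without Cre and 3 with it, with mean deviations of -0.92 to -0.80 and -0.20 to -0.08 on the crushed arrays. Uncrushed arrays ran from -0.08 to 0.04 and from 0.04 to 0.18. Of 11 tested microglia and macrophage markers 4 and 8 were called higher, with crushed arrays at 0.34 to 0.43 and 0.38 to 0.92, and uncrushed ones at -0.02 to 0.03 and 0.00 to 0.24. The 12 Müller glia markers included 1 called higher in each genotype, Vim, and 1 called lower in Cre-positive retinas, Glul. Their mean deviation was -0.06 to 0.05 and -0.01 to 0.14 on uncrushed arrays, and 0.09 to 0.12 and 0.07 to 0.18 on crushed ones. Of 11 tested astrocyte and oligodendrocyte markers Gfap was called higher in both genotypes (0.77 and 0.81), and Aldh1l1 in Cre-positive retinas (0.40). Their mean deviation was -0.03 to 0.01 (Cre-negative) and -0.0016 to 0.11 (Cre-positive) on uncrushed arrays, and 0.03 to 0.07 and 0.06 to 0.21 on crushed ones. Pigment epithelium markers, none called, varied from -0.41 to 0.94 over all arrays. Every rod, ganglion cell and Müller glia marker was well above background on 17 of 17 arrays, and Olig2, Lim2 and Otx1 were well above background on 0.

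Other genes of lipid metabolism were read from lists that the members leave out. Of 17 other genes of isoprenoid and sterol handling none was called in any of the contrasts, with medians of 0.02 and 0.03 for the crush responses. Their changes ran from -0.12 to 0.68 without Cre and from -0.16 to 0.49 with it. Ch25h was the highest in both genotypes. Of 26 other genes of fatty acid synthesis, elongation and binding, 1 was called lower in each genotype. Tecr, the reductase that completes each round of elongation begun by enzymes such as Elovl6, was at -0.35 (SE 0.082, limma adjusted p = 0.028) in Cre-negative retinas. Fabp5, a fatty acid binding protein, was at -0.41 (SE 0.078, adjusted p = 0.017) in Cre-positive retinas. The medians of this list were -0.05 and 0.02.

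Within groups the members did not vary as 1 unit. After each group's mean was removed, the correlation across 17 arrays had a median of 0.08 over the 153 pairs of sterol enzymes. Over the 28 pairs of fatty acid enzymes the median was higher, 0.23. Against all genes tested the medians were -0.0019 for sterol and -0.012 for fatty acid enzymes. Among all 595 member pairs 5.55% had a correlation of at least 0.7 in size, against 4.18% of pairs of a member with any tested gene. These arrays share a dominant axis of within-group variation, which held 23.6% of the variance over all genes and had Cre-positive crushed replicate 3 and Cre-positive uncrushed replicate 1 at one end. Srebf1 (r = 0.91), Mylip (0.86), Scap (-0.93) and Tm7sf2 (-0.92) followed that axis closely. Of the members called after crush, Stard4 (-0.82), Elovl6 (-0.66), Pmvk (0.59) and Mvk (0.55) followed it more than Msmo1 (0.32), Fdps (-0.29) and Idi1 (0.09). The extreme pair, Srebf1 with Tm7sf2 (r = -0.91), lies at opposite ends of that axis. These correlations are descriptions over arrays that share slides and the reference pool.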

How the data were processed

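Whole-retina RNA (Cy5) was hybridised beside a mouse reference pool (Cy3) on 18 two-colour Agilent arrays. The deposited scanner files hold median spot and local background intensity values in both dyes, produced by Agilent Feature Extraction 10.7.3.1 per the file headers, with no normalization, and also Agilent's processed signal intensity. The authors' deposited table, with a value for each probe and array, was taken as log2 of Cy5 over Cy3, because it correlated with the ratios computed here at r of 0.999 to 1, and at 0.998 to 1 after each probe's mean was removed, except 0.95 for Cre-positive uncrushed replicate 1; limma is named for it in the submitters' processing notes, without a version. Those notes do not state its background correction or scaling, and its column medians were 0.015 to 0.0237.

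Here the files were read in R 4.3.3 with the data.table package, version 1.17.8, and limma 3.58.1 gave log2 ratios by normexp correction with an offset of 50 and loess within arrays, with control spots at weight 0 and outlier-flagged spots left out. This offset shrinks the ratios of dim spots. Spots of a probe were averaged, and a gene was read from its brightest probe. Genes with Cy5 well above background on at least 3 arrays were kept, 25359 in all, with 49 missing values. Of these 16780 had a gene symbol, and the rest were probes without one, each counted as a gene. The 17 arrays with agreed labels were fitted with a mean for each of 4 groups (13 residual and 4.49 prior degrees of freedom), and 5 contrasts were tested, with Benjamini-Hochberg adjustment over all genes. The mean crush response over both genotypes was added after the data were seen. Scripts were tested on simulated data.

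The members and lists were chosen with earlier results of these data known, so counts over a list are descriptions. Per-array values are given for members called in the 5 planned contrasts and for Srebf1, Srebf2, Insig1, Hmgcs1, Sqle, Abca1, Fasn, Scd1 and Scd2, and those of Pmvk, Msmo1 and Mvk and the ranges of Stard4 were added after their values were seen. Marker lists covered 10 cell types, with 99 of 101 genes on the array. No array coordinates are given, because the array header names another genome build than the reference table. Alternatives were processed signals, other offsets and filters, the Cy5 channel alone, the authors' values, slide as a block, array weights, other handling of probes and of the array with disagreeing labels, and leaving out each array. The number of arrays limits the precision.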

Additional observations from a re-analysis of the deposited data

Results flagged for a closer look

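In groups of 4 or 5 arrays, 117 sets of values were checked for an array far from the rest, and 9 were marked, where chance marks about 1 in 20. All values are log2 ratios, or mean log2 deviations for a score, with the other arrays of the group in brackets.

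Among Cre-negative uncrushed retinas, Pmvk was at 1.27 on replicate 4 (others 1.418 to 1.423), Mylip at 1.11 on replicate 2 (0.89 to 0.91) and Fasn at 0.56 on replicate 3 (0.60 to 0.61). The regulators' mean deviation was 0.032 on replicate 3 of that group (-0.011 to -0.0098). Among Cre-positive uncrushed retinas, Sc5d was at 0.47 on replicate 4 (0.42 to 0.43), the array rich in cornea genes. Replicate 1 of that group had Mylip at 1.19 (0.89 to 0.91) and Scd2 at -0.79 (-0.59 to -0.52), and it lay near 1 end of the axis of variation shared by all genes. Among Cre-positive crushed retinas, Idi1 was at 0.58 on replicate 1 (0.39 to 0.45) and Hsd17b7 at -0.73 on replicate 2 (-0.44 to -0.38).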

How the results depend on the processing

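No paired analysis was possible because the labels give the samples no replicate numbers and do not tie uncrushed to crushed retinas of a mouse. No result changed direction in any alternative for a called member. The counts below are given without the share of all genes called under the same setting. A change in the members was therefore not told apart from a change over the whole array. In Cre-negative retinas 2 members were called after crush, 1 with processed signals, 4 with array weights, 0 with the array of disagreeing labels counted as uncrushed (3 with it counted as crushed), and 1 to 4 when single arrays were left out; without Cre-negative uncrushed replicate 4 Mvk and Fdft1 were added, and without crushed replicate 1 or 2 Fdps was lost. In Cre-positive retinas 2 were called, 1 with array weights, 0 without both arrays rich in cornea or lens genes, 0 with the disagreeing array as uncrushed, 0 with only the groups of the contrast, and 2 to 3 when single arrays were left out. For the mean response 7 were called, 1 with the disagreeing array as uncrushed, and 4 to 7 when single arrays were left out. The count stayed at 0 for the difference and both Cre effects in every alternative run. Elovl6 kept its call in 33 of 34 alternatives in Cre-negative and 31 of 34 in Cre-positive retinas, Fdps and Idi1 each in 30 of 34. In 17 of these 34 a single array was left out. Arrays of the other genotype are among them, and leaving those out alters only the shared estimate of the spread. The sterol enzymes' median of -0.05 in Cre-negative retinas was -0.11 with processed signals and -0.10 with the Cy5 channel alone, and was nearest 0 with the disagreeing array as uncrushed, -0.020. That of the mean response, -0.11, was -0.15 and -0.16 with those settings. For the difference, the median of -0.0088 was -0.045 with array weights, -0.057 without both arrays rich in cornea or lens genes, and -0.058 to 0.0021 when single arrays were left out. For the Cre effect in crushed retinas, 0.037 became 0.075 with the disagreeing array as crushed and 0.011 to 0.059 when single arrays were left out. Fewer arrays or genes tested follow from some of these settings, and the cause of the other shifts was not tested. The brightest probe of every member was well above background on all arrays in the fit, and a part of signal in these shifts was not tested.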

Other observations

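The array left out of all comparisons came from a Cre-negative retina whose title and treatment say uncrushed and whose description says crushed. Its log2 ratios were 0.87 for Elovl6, -0.41 for Fdps, 0.12 for Idi1, 1.70 for Pmvk, 0.64 for Hmgcs1, -0.99 for Insig1, -0.74 for Sqle and -0.15 for Stard4. Those of Srebf1, Srebf2, Abca1, Fasn, Scd1 and Scd2 were 1.24, -1.70, -0.28, 0.44, -2.20 and -0.70. Its mean deviations were -0.16 for the sterol enzymes, -0.92 for ganglion cell, 0.60 for microglia and 0.91 for lens markers, and it lay at an even slide position. Cre-negative crushed arrays ran from -0.92 to -0.80 for ganglion cell and from 0.34 to 0.43 for microglia markers, and Cre-negative uncrushed ones from -0.08 to 0.04 and from -0.02 to 0.03. Values were not used to give it a group.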
